A study of Drosophila melanogaster with 4 samples.

Results

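The 10 genes described here encode transcription factors of the fly heart and dorsal mesoderm: the homeobox genes *tin* and *bap*, the GATA factor gene *pnr*, the T-box genes *Doc1*, *Doc2*, *Doc3*, *mid* and *H15*, the basic helix-loop-helix gene *Hand* and the LIM-homeobox gene *tup*. They were chosen by name, through the CG numbers that the array gives its probes, and with earlier results of these data known. All 10 were measured among the 15046 genes and unnamed transcripts tested. The measured RNA came from whole *Drosophila melanogaster* embryos that were homozygous for ectopic expression of the microRNA mir-3, and from wild-type w1118 embryos, the genetic background of both groups. Eggs were laid over 2 h at 25 °C and the embryos were 6 to 8 h old. Each of 4 dual-colour Agilent arrays carried both RNAs, giving 3 biological replicates per genotype, with the fourth array a dye swap of replicate 1. The sources used here do not say what drives mir-3 in these embryos, and no probe was matched to mir-3 itself.

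In the fly embryo, the mesodermal regulator *twi* switches on *tin* throughout the early mesoderm. Dpp signals from the overlying ectoderm then keep *tin* on in the dorsal mesoderm, where heart and gut muscle precursors arise, and Wg signals help to set the heart precursors apart. In the cardiac field *tin*, *pnr* and the *Doc* genes depend on one another, whereas *bap* marks the precursors of gut muscle. Several of these genes are not restricted to mesoderm: *pnr*, the *Doc* genes and *tup* are also known from dorsal ectoderm or amnioserosa, *mid* and *H15* from epidermis and nervous system, and *Hand* and *tup* from the lymph gland.

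Of the 10 factors, 8 were lower in mir-3 ectopic embryos and 0 were higher by limma with Benjamini-Hochberg adjustment over all genes and a threshold of 0.05. At an unadjusted p under that value, 9 were lower and 1 was higher. Over the whole array 24.2% of genes were called lower and 24% higher after adjustment, so calls were common. The share of all genes at an unadjusted p is not given here, so unadjusted counts have no matching background. The count of 8 became 5 without replicate 2, where 16.1% of all genes were called lower. It became 0 (1 at an unadjusted p) when each array was median-centred in place of loess normalization. There 0.42% of all genes were called lower, and *tin* was at -0.76 (limma adjusted p 0.43). The median log2 ratio of the 10 factors, mir-3 ectopic over wild type, was -0.26, and that of all genes tested was -0.0018. The largest difference was that of *tin* at 1.66-fold, and the 7 others called were between 1.13-fold (*bap*) and 1.40-fold (*mid*) lower. The factors were measured on 14 probes, all well above background in each genotype on 4 of 4 arrays and with 0 flagged spots.

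Dye effects cancel within replicate 1 but not in replicates 2 and 3, where mir-3 ectopic RNA was always in Cy3. Leaving out replicate 1 thus leaves 2 arrays of the same dye orientation, in which genotype and dye cannot be told apart. All directions rest on the dyes named in the labels, and the deposited value table runs the other way round. A fit that also estimated a dye effect took the 4 arrays as separate values, including both of replicate 1. Only the dye-swap array had its orientation, so the p-values of that fit rest on the spread of the other 3 arrays. In it 8 of the factors were lower and 0 higher at limma adjusted p under 0.05 (8 and 0 unadjusted). Of all genes 27.2% were lower and 26.6% higher after adjustment. On the dye-swap array the median of the 10 factors was -0.12, closer to 0 than on the arrays of replicate 1 (-0.24), 2 (-0.30) and 3 (-0.35). Of the 10, 9 were below 0 on each of those 3 arrays and 8 on the dye-swap array, where 51.4% of all genes were below 0. In RNA of whole embryos, fewer cells expressing a factor and less of its RNA per cell cannot be told apart.

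**Figure D1:**
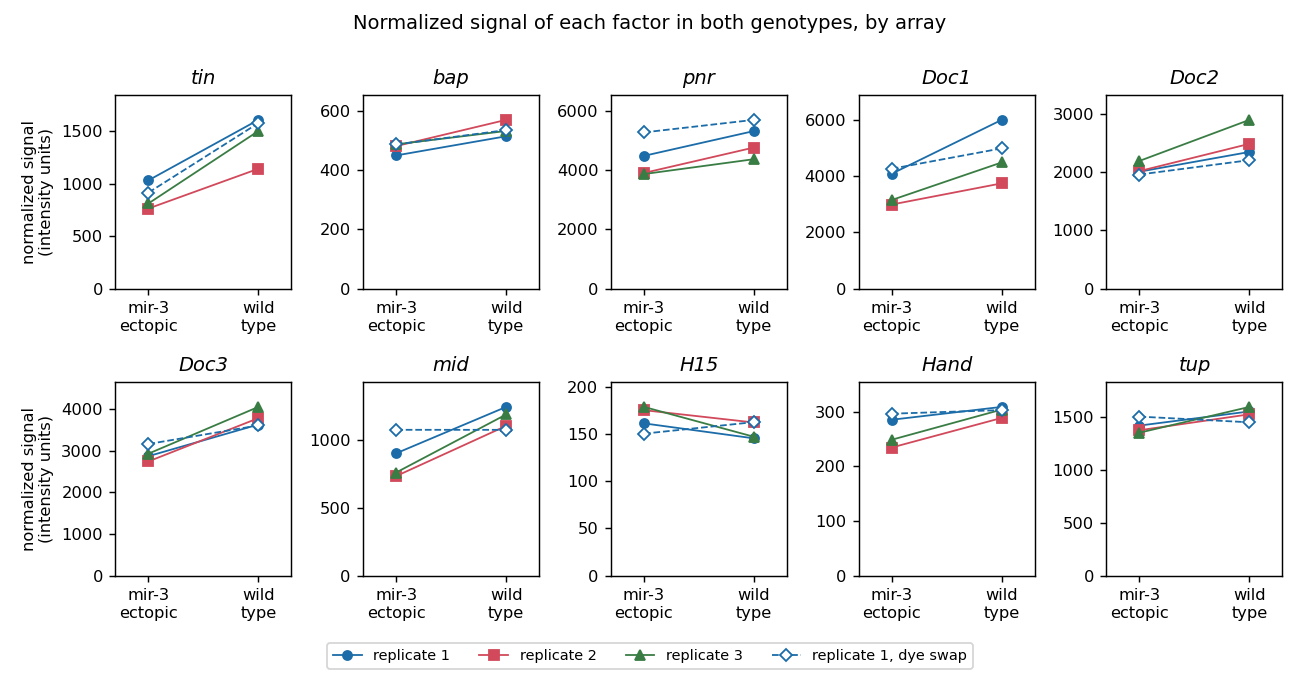
Normalized signal in intensity units (vertical axis, from 0) of each of the 10 factors in mir-3 ectopic embryos (left in each panel) and wild-type embryos (right). A line joins the channels of 1 array, dashed for the dye swap of replicate 1, and genes with several probes are shown as the geometric mean over probes. All 4 lines of *tin* rise to the right, with mir-3 ectopic signals of 762 to 1030 and wild-type signals of 1141 to 1606.

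The homeobox gene *tin* (CG7895), the earliest of the heart regulators, lies on chromosome arm 3R and was read by 1 probe with 2 spots per array. Its normalized signal in mir-3 ectopic embryos was 1030 and 913 in replicate 1 (first array, then dye swap), 762 in replicate 2 and 810 in replicate 3. In wild-type embryos it was 1606, 1575, 1141 and 1500 in the same order. Every mir-3 ectopic signal was below every wild-type signal. The mean was 847 ± 109 in mir-3 ectopic embryos and 1410 ± 238 in wild-type embryos (SD, n = 3 each). The log2 ratios of the 4 arrays were -0.64, -0.79, -0.58 and -0.89, all below 0. In the limma test *tin* had a ratio of -0.73 ± 0.15 (SD, n = 3), an unadjusted 95% interval of -0.87 to -0.58 and an adjusted p of 0.00012. It was the only one of the 10 factors whose ratio was further from 0 on the dye-swap array than on the first array of replicate 1 with the same sign on each. Of all 15046 ratios, 1.97% were lower than that of *tin*.

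The gene *bap* (CG7902), a homeobox gene of the gut muscle precursors that *tin* is known to activate, directly adjoins *tin* on 3R. Its mir-3 ectopic signal was 449, 486, 481 and 487 on the array of replicate 1, its dye swap, replicate 2 and replicate 3, against wild-type signals of 514, 535, 569 and 532. The genotypes did not overlap, and the mean ratio of its 2 probes was -0.18 ± 0.06 (SD, n = 3, limma adjusted p 0.014). This call came from 1 probe, at -0.34 ± 0.09 (SD, n = 3, limma adjusted p 0.0017), whose ratio was only -0.07 on the dye-swap array. The other *bap* probe was at -0.02 ± 0.07 (SD, n = 3, limma adjusted p 0.77) and changed sign between arrays. It was much dimmer, with wild-type signals of 180 to 246 against 1243 to 1471 for the called probe. The probes are named for the same transcript, so the size of the *bap* difference is uncertain. Leaving out replicate 2 ended the *bap* call (limma adjusted p 0.12), as did the dye-swap array alone for replicate 1 (0.070). The ratio of *tin* was below that of *bap* in all 3 replicates, with log2 differences of -0.55, -0.34 and -0.76. This gap was chosen after the values were seen and was not tested.

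The GATA factor gene *pnr* (CG3978), which acts with *tin* in heart specification and also patterns the dorsal ectoderm, lies elsewhere on 3R. It had mir-3 ectopic signals of 4473 on the first array of replicate 1, 5264 on the dye swap, 3897 in replicate 2 and 3860 in replicate 3, and wild-type signals of 5310, 5686, 4754 and 4361. The mir-3 ectopic signal was below the wild-type one on each array, although the ranges of the genotypes overlapped across arrays. Its ratio was -0.21 ± 0.06 (SD, n = 3, limma adjusted p 0.0070), and on the dye-swap array it was -0.11. Leaving out replicate 2 ended the call (limma adjusted p 0.064), as did taking the channels as unpaired samples (0.21). The dye-swap array alone for replicate 1 also ended it (limma adjusted p 0.060).

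The *Doc* genes, T-box factors that are known to act redundantly in amnioserosa and heart, lie together on 3L, with *Doc1* next to *Doc2* and 1 other protein-coding gene between *Doc2* and *Doc3*. All 3 were lower in mir-3 ectopic embryos, with the same sign on 4 of 4 arrays. *Doc1* (CG5133) had mir-3 ectopic signals of 4086, 4263, 2990 and 3152 on the array of replicate 1, its dye swap, replicate 2 and replicate 3, against wild-type signals of 6004, 4989, 3745 and 4489. The genotypes overlapped in level across arrays, while every array gave a lower mir-3 ectopic signal. The ratios were -0.56, -0.23, -0.32 and -0.51, with a mean over replicates of -0.41 ± 0.09 (SD, n = 3, limma adjusted p 0.00061). With the channels as unpaired samples, the *Doc1* call was lost at the same ratio (limma adjusted p 0.10).

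*Doc2* (CG5187) had mir-3 ectopic signals of 2007, 1958, 2017 and 2191 and wild-type signals of 2345, 2205, 2485 and 2896, again for replicate 1, its dye swap, replicate 2 and replicate 3. Averaged within replicate 1, the genotypes did not overlap, and the mean ratio was -0.30 ± 0.10 (SD, n = 3, limma adjusted p 0.0028). *Doc3* (CG5093) had mir-3 ectopic signals of 2865, 3157, 2739 and 2925 and wild-type signals of 3624, 3602, 3777 and 4047, with no overlap. Its mean ratio was -0.40 ± 0.12 (SD, n = 3, limma adjusted p 0.00099). The ratios of *Doc2* and *Doc3* on the dye-swap array, -0.17 and -0.19, were closer to 0 than on the other 3 arrays. Among the paralogues, *Doc1* minus *Doc3* was -0.13, 0.14 and -0.04 in the 3 replicates and showed no constant direction. *Doc1* minus *Doc2* was -0.19, -0.02 and -0.11. Whether a probe for one *Doc* gene also binds another's transcript was not tested.

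**Figure D2:**
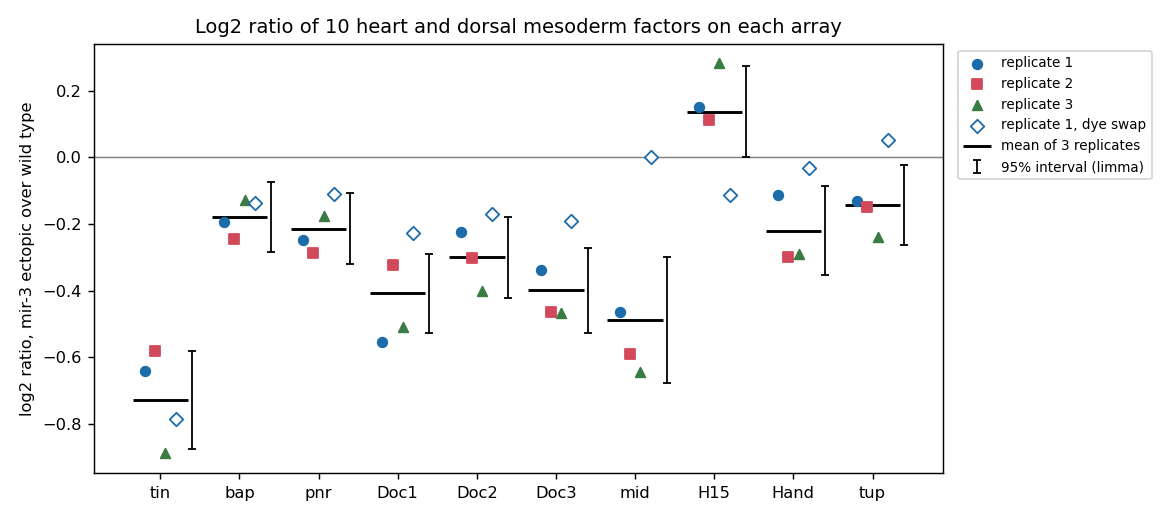
Log2 ratio of mir-3 ectopic over wild type (vertical axis) for the 10 factors on each of 4 arrays, with the mean of the 3 replicates as a bar and its unadjusted 95% limma interval beside it. The intervals of *tup* and *H15* lie beside 0, from -0.26 to -0.02 and from 0.0012 to 0.27, and neither gene passed after adjustment; the open diamonds of the dye swap lie above the other arrays for most genes and below them for *H15*.

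The T-box genes *mid* and *H15*, neighbours on 2L with overlapping roles in heart cell identity, gave different values. *mid* (CG6634) had mir-3 ectopic signals of 901, 1074, 733 and 760 on the array of replicate 1, its dye swap, replicate 2 and replicate 3, against wild-type signals of 1243, 1074, 1103 and 1187. The signals were nearly equal on the dye-swap array, and on the others the mir-3 ectopic signal was lower. The ratio over its 2 probes was -0.49 ± 0.22 (SD, n = 3, limma adjusted p 0.0023), the widest replicate spread of the 10. One *mid* probe was at -0.58, -0.54, -0.69 and -0.69 on the 4 arrays in that order, with a mean of -0.65 ± 0.07 (SD, n = 3, limma adjusted p 6.3e-05). The other was at -0.34, -0.49 and -0.60 on the 3 arrays of the same dye orientation and at 0.54 on the dye swap, with a mean of -0.33 ± 0.37 (SD, n = 3, limma adjusted p 0.056). The gene's value on the dye-swap array, 0.00034, is the average of these opposite readings, and estimating a dye effect put *mid* at -0.28 (limma adjusted p 0.0014). The probe that changed sign was the dimmer, with wild-type signals of 413 to 585 against 2642 to 2796.

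*H15* (CG6604) was the only factor with a ratio above 0. Its mir-3 ectopic signals were 161, 150, 175 and 179 and its wild-type signals 145, 163, 162 and 147, for replicate 1, its dye swap, replicate 2 and replicate 3. The genotypes overlapped, and the dye-swap array gave a lower signal in mir-3 ectopic embryos while the others gave a higher one. The ratio of 0.14 ± 0.13 (SD, n = 3) did not pass (limma adjusted p 0.088), and a fit with a dye effect gave 0.03 (limma adjusted p 0.54). Without replicate 1, and so without the dye swap, it was called higher, at 0.20 (limma adjusted p 0.017). *mid* minus *H15* was -0.25, -0.70 and -0.93 in replicates 1, 2 and 3, a gap chosen after the values were seen and not tested.

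*Hand* (CG18144), a gene of heart, gut muscle and blood-forming cells that *tin* and *pnr* are known to activate, lies on 2L. Its mir-3 ectopic signals were 285, 296, 234 and 249 and its wild-type signals 309, 303, 289 and 304, for replicate 1, its dye swap, replicate 2 and replicate 3. Each array gave a lower mir-3 ectopic signal, by little on the arrays of replicate 1, at log2 ratios of -0.11 and -0.03, and by -0.30 and -0.29 in replicates 2 and 3. The mean was -0.22 ± 0.13 (SD, n = 3, limma adjusted p 0.016). Leaving out replicate 2 (limma adjusted p 0.084) or replicate 3 (0.10) ended the call, as did unpaired channels (0.089). So did the dye-swap array alone for replicate 1 (limma adjusted p 0.085), and a fit with a dye effect gave -0.13 (0.045).

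*tup* (CG10619), the fly Islet gene, which is needed in the early cardiac field and the lymph gland, lies on 2L and was read by 3 probes. Its mir-3 ectopic signals were 1417, 1502, 1373 and 1350 on the array of replicate 1, its dye swap, replicate 2 and replicate 3, and its wild-type signals 1551, 1448, 1524 and 1594. The dye-swap array was the only one with a higher mir-3 ectopic signal. The ratio of -0.14 ± 0.10 (SD, n = 3) did not pass (limma adjusted p 0.054), and a fit with a dye effect gave -0.06 (limma adjusted p 0.23). Without replicate 1, and so without the dye swap, it was called lower, at -0.19 (limma adjusted p 0.010). Its probes were at -0.19 (limma adjusted p 0.038), -0.22 (0.057) and -0.02 (0.69).

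Taking probes singly, 9 of the 14 were lower and 0 higher by limma, against 22.9% of all 19961 kept probes lower and 24.5% higher. After averaging the arrays of replicate 1, 6 of the 10 factors had every mir-3 ectopic signal below every wild-type signal: *tin*, *bap*, *Doc2*, *Doc3*, *mid* and *tup*. Of all genes 21.4% separated in that direction and 22.9% in the other.

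**Figure D3:**
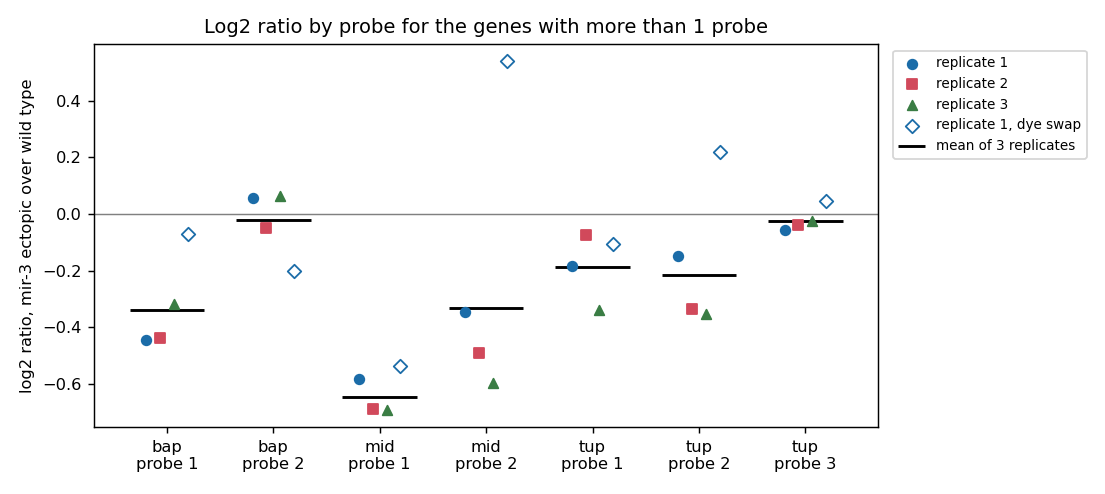
Log2 ratio of mir-3 ectopic over wild type (vertical axis) on each array for the 7 probes of *bap*, *mid* and *tup*, the 3 factors with more than 1 probe, with the mean of 3 replicates as a bar. Probe 1 of *mid* sits between -0.69 and -0.54 on 4 arrays, whereas probe 2 is at 0.54 on the dye swap and below 0 on the others.

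Genes that act upstream of these factors were called in both directions, as were 24.2% (lower) and 24% (higher) of all genes tested. Those shares are also the background for the lists below. Of 24 measured genes of early mesoderm, FGF, Dpp, Wg and Hedgehog signalling, 5 were lower, 2 were higher and 17 did not pass, with a median ratio of -0.02. The counts lower and higher were 7 and 3 without replicate 1, 2 and 1 without replicate 2, and 1 and 1 without replicate 3. In the same order, 28.2%, 16.1% and 14.8% of all genes were lower, and 4019, 2752 and 2532 of 15046 were higher. This background applies to the same fits for the lists below. The Dpp ligand gene *dpp* was at -0.12 ± 0.08 (SD, n = 3, limma adjusted p 0.077), the Wnt ligand gene *wg* at -0.09 ± 0.18 (SD, n = 3, limma adjusted p 0.32) and *twi* at -0.10 ± 0.08 (SD, n = 3, limma adjusted p 0.13). None of these 3 passed. In the fit with a dye effect *twi* passed at -0.18 (limma adjusted p 0.0047), and *wg* was at 0.06 there. On the dye-swap array *wg* was at 0.27, and without replicate 1, which holds that array, *wg* was called lower (-0.19, limma adjusted p 0.0099). *Mad*, the Smad that carries the Dpp signal to the nucleus, rose by 0.29 (limma adjusted p 0.0013), with ratios of 0.27 to 0.34 on 4 arrays, although not with unpaired channels (0.087). The segment polarity genes *en* (-0.25, limma adjusted p 0.0031) and *hh* (-0.21, limma adjusted p 0.0089) fell, but *hh* was not called without replicate 2 (0.060) or 3 (0.068).

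Of 11 partner regulators of heart and pericardial cells, 10 were measured, 4 being lower and 3 higher, with a median of 0.01. Without replicate 2, 1 was lower and 1 higher, and without replicate 3 the counts were 3 and 2. The *pnr* cofactor gene *ush* rose by 0.35 (limma adjusted p 0.0012), with ratios of 0.24 to 0.48 on 4 arrays. *Ubx*, a Hox gene that patterns the heart along its length, fell by 0.26 (limma adjusted p 0.0031), and *Him*, an inhibitor of muscle differentiation, fell by 0.20 (limma adjusted p 0.0072), a call that needed replicate 2 (0.059 without it). With no filter on dim probes *Ubx* was at -0.11 and not called (limma adjusted p 0.071). The muscle and heart regulator *Mef2* rose by 0.16 ± 0.03 (SD, n = 3, limma adjusted p 0.018), a call that ended without replicate 2 (0.061) or 3 (0.11). Its brightest probe was at 0.41. *svp*, a nuclear receptor gene of the heart's inflow cells, was lower at -0.17 (limma adjusted p 0.034). That call ended in the fit with a dye effect (limma adjusted p 0.15), without replicate 2 (0.17) and without replicate 3 (0.18), and the brightest *svp* probe was at 0.03. *eve*, which marks a subset of pericardial cells, was at 0.10 ± 0.09 (SD, n = 3, limma adjusted p 0.15). It was called higher without replicate 1, and so without the dye swap (limma adjusted p 0.028).

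Among 8 visceral mesoderm genes 2 were lower and 0 higher by limma (2 and 1 unadjusted), with a median of -0.05: the FoxF gene *bin*, a known target of *bap*, at -0.14 (limma adjusted p 0.029), and the cell adhesion gene *rst* at -0.17 (limma adjusted p 0.020). Neither call held, and the list had 0 called by limma, without replicate 2 (limma adjusted p 0.19 for *bin* and 0.076 for *rst*) or 3 (0.12 and 0.14). The brightest *bin* probe was at -0.27. Among 15 genes of the heart tube and its differentiation 4 were lower and 1 higher, with a median of -0.01, and without replicate 2 or replicate 3 the counts by limma were 3 and 0. The pericardial matrix gene *prc* fell by 0.37 (limma adjusted p 0.00094), *betaTub60D*, a tubulin of muscle and heart, by 0.29 (limma adjusted p 0.0036), and *Tina-1* by 0.22 (limma adjusted p 0.0049). *prc* was lowest on the dye-swap array (-0.62), where *betaTub60D* was near 0 (-0.02), and with the scanner software's processed signals *prc* was at -1.10.

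**Figure D4:**
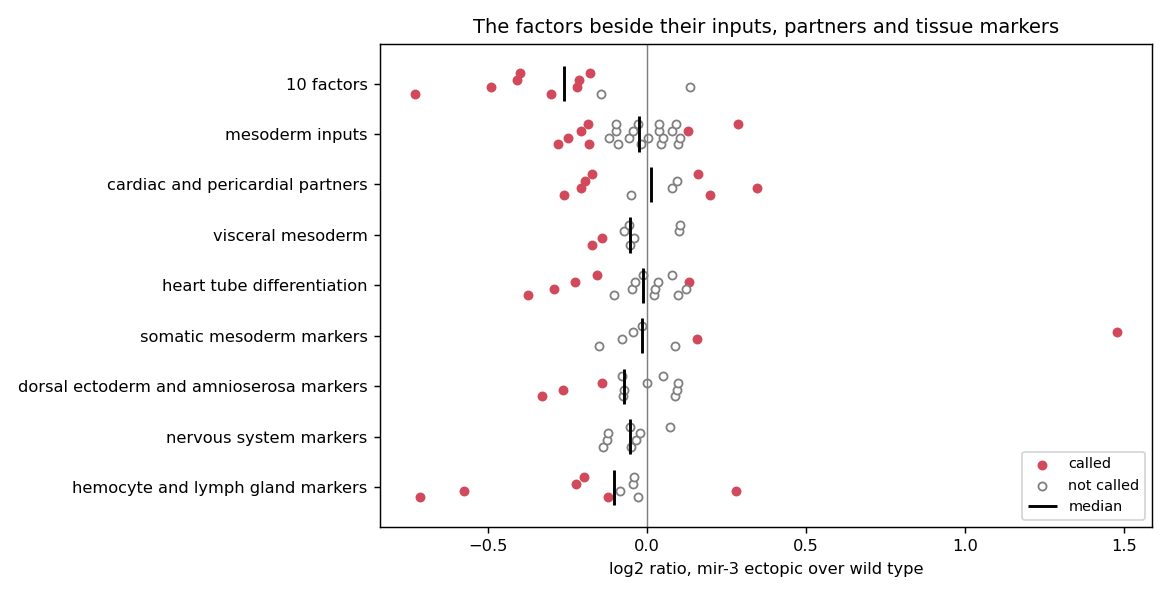
Log2 ratio of mir-3 ectopic over wild type (horizontal axis) of the 10 factors (top row) and of the measured genes of 8 lists, 1 point per gene, filled where limma's adjusted p was below 0.05, with each median as a bar. The median of the factors is at -0.26 and those of the 8 lists lie between -0.10 and 0.01; the single point near 1.5 is *Kr*.

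Markers of other tissues in which these factors are also known gave mixed values. Of 14 dorsal ectoderm and amnioserosa markers 11 were measured, with 3 lower, 0 higher (also 3 and 0 unadjusted) and a median of -0.07. Without replicate 3, 1 was lower. Their summed signal ran from 19215 to 19674 in mir-3 ectopic embryos and from 18974 to 20010 in wild-type embryos. The JNK phosphatase gene *puc* (-0.33, limma adjusted p 0.0038) and *rho* (-0.26, limma adjusted p 0.0081), which promotes EGF signalling, were lower but above 0 on the dye-swap array, and *rho* was not called without replicate 3 (0.055). The Dpp-pathway protease gene *tld* was lower at -0.14 (limma adjusted p 0.043) but not called without replicate 1 (0.10), 2 (0.13) or 3 (0.080), and the amnioserosa determinant *zen* was at 0.00061 ± 0.06 (SD, n = 3, limma adjusted p 0.99). Of 8 nervous system markers 0 were lower and 0 higher by limma (3 and 0 unadjusted), with a median of -0.05, although 2 were lower without replicate 1. Their summed signal was 31730 to 32271 in mir-3 ectopic embryos against 32778 to 34978 in wild-type embryos. The sums of the heart and pericardial partners (21386 to 22029 against 22932 to 23966) and of the visceral mesoderm genes (11973 to 12688 against 12808 to 13434) were also lower. The median ratio of those partners was nevertheless 0.01, with 4 lower and 3 higher. Bright genes weigh most in all sums given here, and no matching background over all genes is given. Sums of the upstream genes and of the heart tube genes overlapped between the genotypes. The markers *zen2*, *scw* and *tsg* were not kept as measured.

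Of 12 hemocyte and lymph gland markers 10 were measured, of which 5 were lower and 1 higher, with a median of -0.10. The number lower was 3 without replicate 2 and 3 without replicate 3. The higher gene, the collagen gene *vkg* (0.28, limma adjusted p 0.0093), named after its value was seen, was at -0.16 on the dye-swap array and was not called without replicate 3 or in the fit with a dye effect (0.051). The matrix protein gene *Tig* fell by 0.71 (limma adjusted p 2.7e-05), the prophenoloxidase gene *PPO1* by 0.57 (limma adjusted p 0.00022) and the peroxidasin gene *Pxn* by 0.22 (limma adjusted p 0.0045), each with the same sign on 4 arrays. Their list's summed signal was 11225 to 11452 in mir-3 ectopic embryos and 13336 to 13754 in wild-type embryos, while the markers *Hml* and *NimC1* were not kept as measured. Of 7 somatic mesoderm markers 0 were lower and 2 higher by limma (0 and 2 unadjusted), at a list median of -0.01. *Kr*, also a gap gene and so not a marker of this tissue alone, was higher by 1.48 (limma adjusted p 7.5e-07). The muscle identity gene *nau* was higher by 0.16 (limma adjusted p 0.019). The *nau* call ended without replicate 2 (limma adjusted p 0.085) or 3 (0.13), which left 1 called. Summed signals were 4962 to 5185 in mir-3 ectopic embryos against 4420 to 4787 in wild-type embryos. That sum includes *Kr*, and the other ratios of the list ran only from -0.15 to 0.16. The part of these tissues in the values of the 10 factors was not tested. Over all 8 lists, 23 of 93 measured genes (24.7%) were lower and 9 (9.68%) higher, at a median of -0.04, against 24.2% and 24% of all genes tested. The share lower was thus near that of the whole array.

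**Figure D5:**
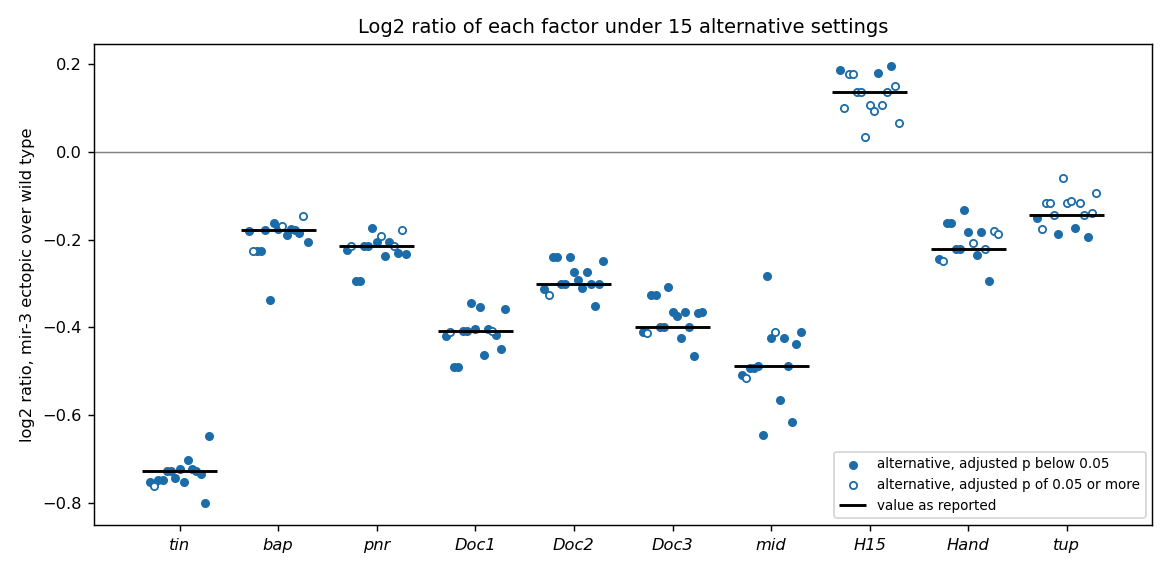
Log2 ratio of mir-3 ectopic over wild type (vertical axis) of each factor as reported (bar) and under 15 alternative settings (points), filled where limma's adjusted p was below 0.05. *tin* stays between -0.80 and -0.65, and *H15* between 0.03 and 0.20.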

How the data were processed

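Per the file headers, the arrays were quantified with Agilent Feature Extraction 10.1.1.1, on a design annotated for BDGP5.4. The deposited files give spot intensity as median foreground and background, processed signals and log10 ratios, as the authors' scanner wrote them. The deposited value table holds log2 ratios, which matched the processed signals on each array (lowest absolute correlation 0.9997) as Cy5 over Cy3, except on the swapped array, where it was the inverse; by the labelled dyes it is therefore wild type over mir-3 ectopic throughout. Its column medians were -0.11 (replicate 1), -0.07 (replicate 2), 0.11 (replicate 3) and -0.15 (dye swap).

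Signals were background-corrected by normexp (offset 50) and loess-normalized in limma 3.58.1 (R 4.3.3, statmod 1.5.0). Printed signals were also quantile-scaled on their average (Aquantile). Control and outlier-flagged spots were left out (107 to 173 flagged per array, with 0 saturated). A probe was kept if a share of at least 0.5 of its spots was well above background for at least 1 genotype on at least 3 of 4 arrays, leaving 19961 of 32162. Spots of a probe, then kept probes of a gene, were averaged. CG numbers were named through RefSeq (Release 6), without coordinates; 12625 probes kept the file's name.

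The arrays of replicate 1 were averaged, and 3 ratios were tested against 0 with lmFit and eBayes across all genes. The fit with a dye effect took the 4 arrays singly. The genotypes of a replicate share an array and are paired; their deviations correlated at 0.53 to 0.64. Across genes, arrays of the same orientation correlated at r of 0.94 and the dye swap with them at 0.75 to 0.80. The number of arrays limits the precision. The labels call the replicates independently isolated. The test was tried on simulated data. The 10 factors and the lists were chosen with earlier results of these data known. Besides the factors, the genes named are the 3 called genes of smallest p in each list, 9 genes always named (*dpp*, *wg*, *twi*, *Mef2*, *svp*, *eve*, *ush*, *bin* and *zen*), *vkg*, and the neighbours in the closing section.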

Additional observations from a re-analysis of the deposited data

Results flagged for a closer look

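Over 36 named genes, the 4 arrays were compared for 1 that stood apart from the other 3, by the gap to its nearest neighbour relative to the whole range (Dixon's criterion), which chance meets in about 1 of 20 groups. It was met for 5 genes, each time on the dye-swap array, and for 0 of the 10 factors. The log2 ratio there was -0.62 for *prc* and -0.38 for *tld*, below the other arrays, and -0.0182 for *betaTub60D*, 0.0317 for *puc* and 0.0675 for *rho*, above them.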

How the results depend on the processing

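Under 15 alternatives the ratio of *tin* ran from -0.80 to -0.65 and stayed called in 14; with median centring in place of loess it was -0.76 and not called (limma adjusted p 0.43), and leaving out 1 replicate gave -0.80 to -0.65. Of the other 9 factors, none changed sign under any of the 15. The number of factors lower, 8 as reported, was 0 with median centring (1 unadjusted). There 87 genes were called over the whole array in place of 7244, and 0.42% of all genes were called lower. The number was 4 when replicate 1 was represented by its dye swap (4318 genes called, 13.9% of all genes lower). It was 5 with no replicate block, that is with unpaired channels (4435 genes called, 13.7% lower). Leaving out 1 replicate gave 5 to 9, the lowest without replicate 2, with 4764 to 8267 genes called and 14.8% to 28.2% of all genes lower. The number higher was 1 (*H15*) with no background subtraction and with the first array alone for replicate 1, and 0 to 1 when 1 replicate was left out. Of all 15046 genes, 3872 and 4444 were higher in the former settings, in that order. With 1 replicate left out, 2532 to 4019 were higher. With the brightest probe *svp* was at 0.0294 (limma adjusted p 0.66). *H15* and *Hand* passed in 3 and 10 of the 15. Replicate 1 lay on 1 slide and replicates 2 and 3 on the other. With the slide as a random block (correlation -0.05) 8 factors were lower, against 21.3% of all genes. That fit took the 4 arrays as separate values, including both of replicate 1. In replicates 2 and 3 alone, which hold no dye swap, 9 were lower, against 28.2% of all genes. The causes were not tested.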

Other observations

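The genes *tin* and *bap* belong to a run of homeobox genes on 3R in which *lbl*, *C15* and *slou* follow, with 5, 8 and 10 protein-coding genes between each and *tin* in the RefSeq gene order. These neighbours were chosen after the values were seen. *lbl*, a homeobox gene of heart and muscle subsets, was higher in mir-3 ectopic embryos at 0.20 (limma adjusted p 0.0077). The amnioserosa gene *C15* was at -0.07 (limma adjusted p 0.28) and the muscle identity gene *slou* at -0.08 (limma adjusted p 0.25). Differences between neighbours were not tested.

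The 6 factors whose probe was spotted in duplicate allow the noise within an array to be read. The mean gap between the log2 ratios of duplicate spots was 0.06 for *pnr*, 0.08 for *Doc3*, 0.11 for *H15*, 0.13 for *Doc2*, 0.14 for *tin* and 0.22 for a *tup* probe. The widest gap on any array was 0.28 for *tin* and 0.43 for the *tup* probe. These gaps cover the noise within an array and not the spread between replicates.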
